A study of Mus musculus with 6 samples.

Results

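Nuclear receptors are transcription factors whose activity is set by small lipid-soluble ligands, and coregulators are the proteins that they recruit to raise or lower transcription of their targets. The genes described here are the 54 members of these families on a mouse array, found by symbol: the receptors of subfamilies 0 to 6, the coactivators Ncoa1 to Ncoa7 and corepressors such as Ncor1 and Nrip1. The glucocorticoid receptor was left out by the rule. The 54 genes were measured by 98 of the array's 41174 probes, and the array held 27670 genes in all.

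RNA came from S49 cells, a mouse T lymphoma line, in 2 forms with 3 arrays each. Neo is the parental line and MR 4-25 is a line recovered from mannitol, which makes the medium hyperosmotic. Neither line was treated at the time of RNA preparation, and both grew in the same serum-supplemented RPMI medium. The labels do not say whether MR 4-25 is 1 clone, and nothing in them says that replicates came from separate cultures, so p-values cover no more than the spread among these samples, and that spread may be technical. Each array gave 1 colour (Cy3) from 1 sample.

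Most receptors of this class bind DNA at copies of a short half-site, and many do so as dimers with a retinoid X receptor. Without ligand, several of them hold corepressors such as Ncor1. With ligand, the receptor changes shape and binds coactivators of the Ncoa family. In T lymphocytes the class is known for Nr4a1, which is switched on by antigen receptor signals.

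The probes of the receptors on which the results turn are shown by the first 30 of their 60 bases, all in lower case because no part is marked. Positions are those of the array's own annotation on build mm7.
Ppara, at chr15:85883890-85883949: caatgttaatcaatgcacagcactctacgt
Pparg, at chr6:115515909-115515968: gcaggaaagtcccacccgctgacaacgtgt
Rarb, at chr14:14246146-14246205: aatgagtggttgacagactcaagtgtcggc
Rora, brightest probe, at chr9:69410920-69410979: gcaaggtgtctacgttaagagccctatgtg
Rora, second probe, at chr9:69411020-69411079: attatacaaggaattgttcacttcagaatt
Rarg, brightest probe, at chr15:102222035-102222094: cactctccacccttttaatgagctcgttat
Rarg, second probe, at chr15:102222347-102224987: cgacctccggggcatcagcactaagggagc
The last of these spans a longer interval than its own length in the annotation, and the 2 Rora probes shown lie next to each other.

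The receptors' half-site was searched in the promoters of the receptor and coregulator genes themselves, in RefSeq windows of 300 bases on build GRCm38.p6. The letters AGGTCA, or TGACCT on the other strand, occurred in 13 of the 48 members that had a window (27.1%), and in 18.1% of 27025 genes. The longer form AAAGGTCA, or TGACCTTT, which contains the shorter one, occurred in 2 of the 48 (4.17%), Rxra and Rxrg, and in 1.7% of genes. Stretches from 4 receptor promoters are shown on the gene's strand, with the half-site in capitals.
Pparg, plus strand, chr6:115361104-115361133: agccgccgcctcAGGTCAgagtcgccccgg
Rarg, minus strand, chr15:102257730-102257759: agcccaggacacTGACCTctgccagctctg
Rxra, plus strand, chr2:27709232-27709261: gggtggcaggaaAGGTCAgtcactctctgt
Rxrg, plus strand, chr1:167618165-167618194: atcggggttgaaAGGTCAgctgaaagcttc
A match is a description of the letters only. The Ppara and Rora windows held neither form.

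Signals are given as log2 of the processed intensity relative to log2 of the array's own 75th percentile, taken over its gene spots, which ran from 844 to 988 on 5 arrays and was 521 on MR 4-25 3. Levels of different probes are not comparable on this scale. Slide 1 held replicates 1 and 2 of both lines, and slide 2 held replicate 3 of both.

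Each array also carried a rounded region in which many probes read lower than elsewhere on the same array. Probes printed in 10 spots each served to locate it, 240 after leaving out the members' own probes of that kind. Of these, only probes whose spots had an SD over 0.5 log2 units on the array were used, 102 to 124 per array. Lower signal of those probes inside the region is therefore how it was defined. The region covered 39.1%, 21.1% and 27.7% of gene spots on Neo 1, 2 and 3, and 29.7%, 32.9% and 54.8% on MR 4-25 1, 2 and 3. It lay at the upper left on the 4 arrays of slide 1 and in the lower part on the 2 arrays of slide 2, so a probe could fall inside it in one line and outside it in the other. Of the probes compared, split into 5 equal classes by level, the brightest class differed between inside and outside by a median of -0.06 to 0.34 log2 units, and class 2 from the dim end by -1.61 to -2.41. What made the region was not tested. Members were therefore also fitted from spots outside the region only, wherever at least 2 arrays of each line had such a spot. This alternative was chosen after seeing the data, and its values are printed below for only part of the members. For many members, such as Esrra, Thra, Thrb, Rxra, Nr1h4, Ncoa1, Ncoa6 and Nr4a2, the fit outside the region left only slide 1, with 2 arrays per line.

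**Figure D1:**
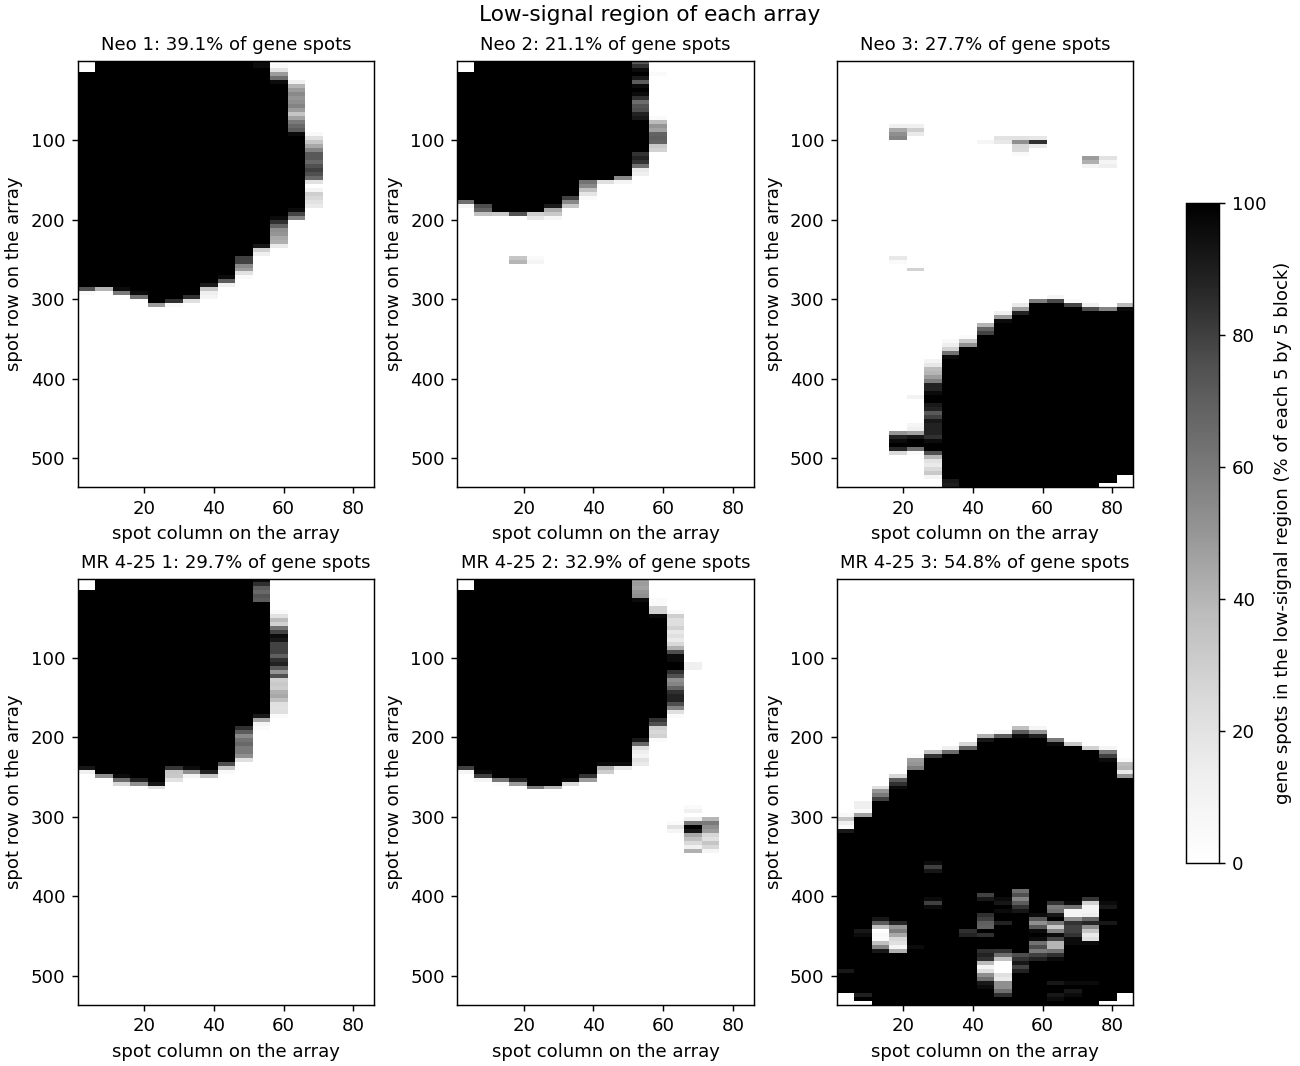
Position of the low-signal region on the 6 arrays, as the percentage of gene spots inside it for each block of 5 by 5 spots (black, 100%), by spot row and spot column. The region sits at the upper left on the 4 arrays of slide 1 and in the lower part of Neo 3 and MR 4-25 3, where it covers 27.7% and 54.8% of gene spots.

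The T cell identity of the lines was checked with 18 T cell markers. All 18 were well above background on all 6 arrays, and their summed level relative to the array's 75th percentile was 382 to 442 in Neo and 315 to 362 in MR 4-25. Among them Cd247, a signalling subunit of the T cell receptor, was lower in MR 4-25 by 4.06 ± 0.45 log2 units (SE; limma adjusted p = 0.0272, and 0.139 with the replicate number as a block), and the other 17 did not pass. From spots outside the region, 3 of 13 T cell markers passed as lower, namely Cd247, Lat and Ptcra. Of 7 measured B cell markers, 1 was lower, the adaptor Blnk, at -1.90 ± 0.25 (SE; limma adjusted p = 0.0408, and 0.114 with the replicate number as a block). No myeloid, fibroblast or epithelial marker passed, and outside the region 1 of 8 myeloid markers, Lyz2, passed as higher. The summed level of 8 B cell markers was 1.24 to 1.38 in Neo and 1.10 to 1.73 in MR 4-25, that of 10 myeloid markers 2.29 to 2.80 and 3.67 to 4.21, and that of 10 fibroblast and epithelial markers 0.742 to 1.52 and 1.09 to 2.12. Of these lists, 4 of the 8 B cell, 7 of the 10 myeloid and 5 of the 10 fibroblast and epithelial markers were well above background on all 6 arrays. On at least 1 array it was all 8, all 10 and 8. Only Cdh1 and Epcam, which define epithelia, were not well above background on any array. The part of other cells in the results below was not tested, and in bulk RNA fewer cells of a type and less RNA per cell cannot be told apart.

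Of the 54 members, 49 had a probe that stood well above background on 3 or more of the 6 arrays and were tested. The other 5 were Nr0b1, Nr1h5, Nr2e1, Nr2f1 and Vdr. One member, Ppara, was past the threshold, as lower in MR 4-25, where its probe was not well above background on any array. It passed the filter only through Neo, so its count supports nothing about the members. No member passed in the other direction (limma adjusted p under 0.05 over 21341 genes, of which 1.23% passed and 0.558% were lower). At an unadjusted p under 0.05, 3 members were higher and 1 was lower, against 13.3% of all genes in either direction. The values of the lines did not overlap for 12 members, 5 higher and 7 lower, which was 24.3% of genes over the whole array. The median difference of the 49 members was -0.02 log2 units, beside 0.01 for all genes. From spots outside the region, 38 members could be tested, and 1, again Ppara, passed (2.91% of 15417 genes). At an unadjusted p under 0.05 it was 4 higher and 1 lower, beside 19.5% of genes. There 15 of 38 did not overlap between lines, beside 45% of genes.

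**Figure D2:**
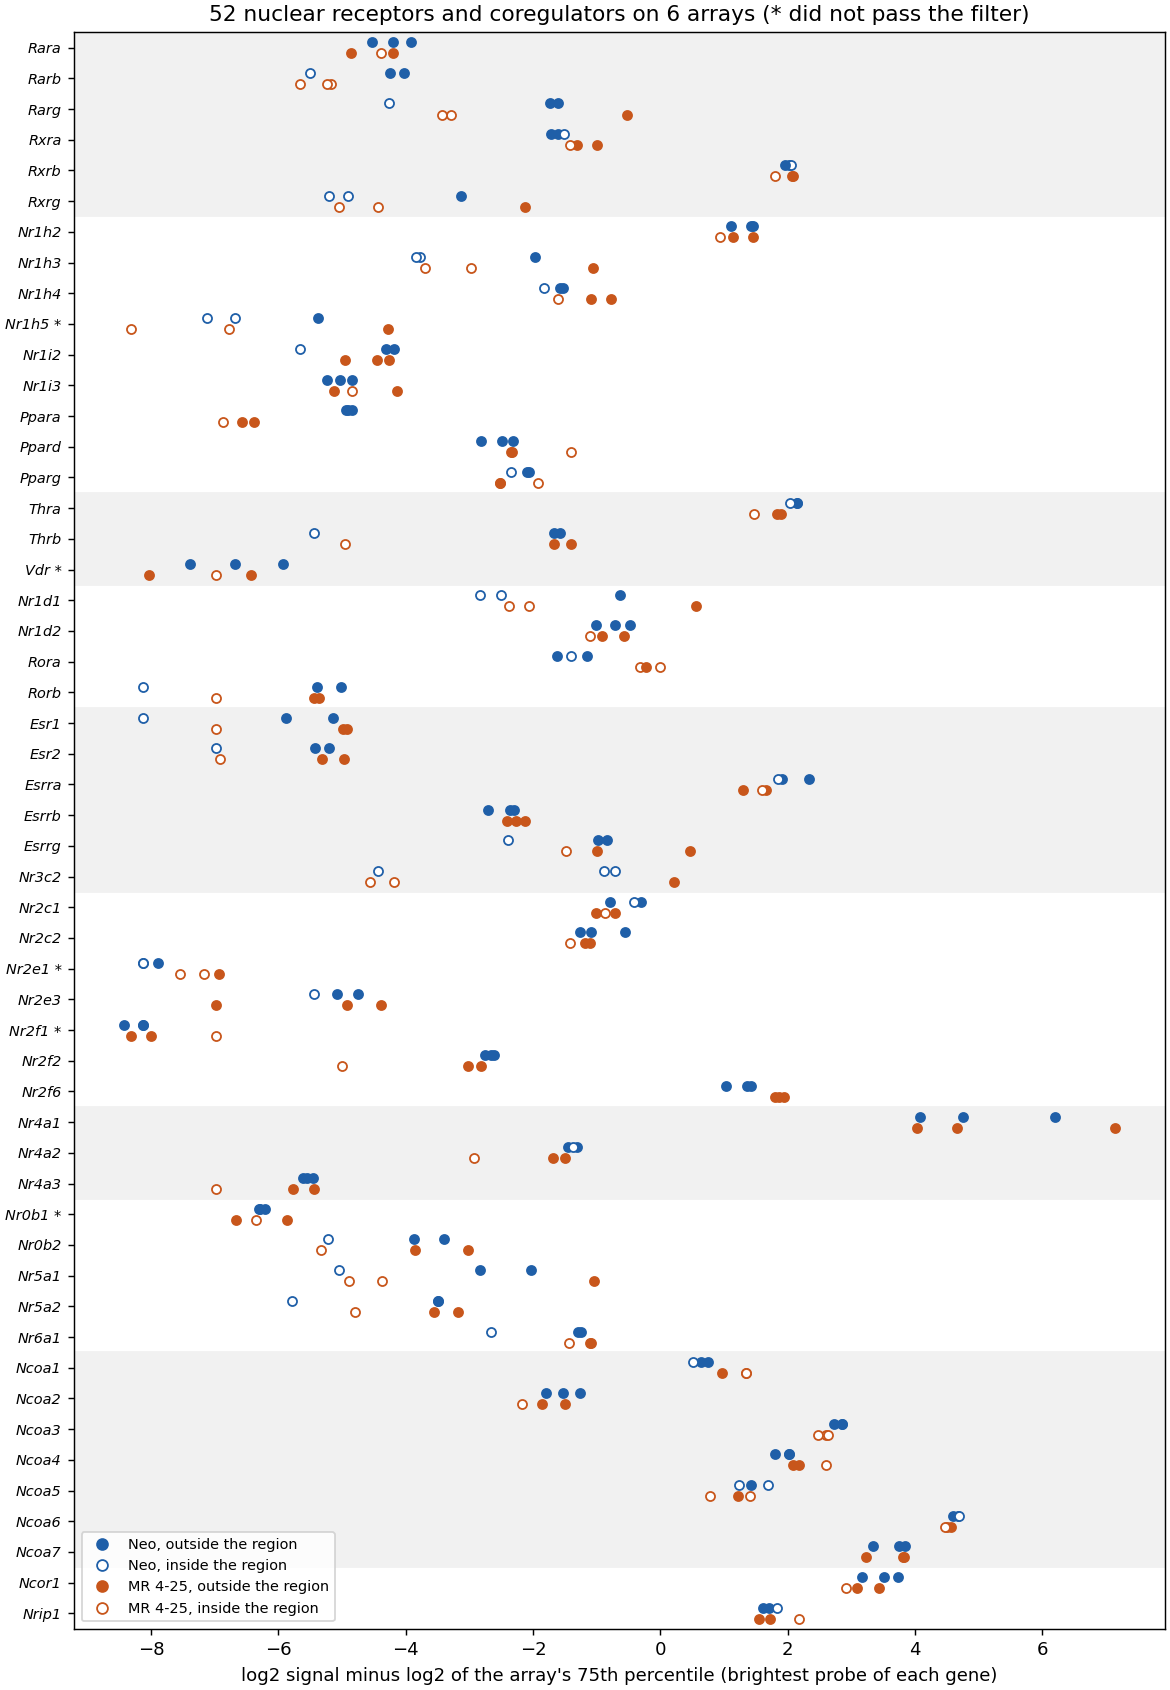
Signal of the brightest probe of 52 of the 54 members on the 6 arrays, on the log2 scale relative to the array's 75th percentile, with Neo in blue and MR 4-25 in orange, open points where at least 0.5 of the probe's spots lie inside the low-signal region, and members grouped by role in shaded bands. Ppara is the member whose lines are apart and past the test, and for members such as Thrb, Rarg and Nr1h3 the low points are the open ones.

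Ppara encodes the fatty-acid-activated receptor that drives genes of fatty acid oxidation. Its relative signal was -4.85, -4.90 and -4.94 in Neo 1, 2 and 3, and -6.37, -6.57 and -6.86 in MR 4-25 1, 2 and 3. All 3 values of MR 4-25 were below all 3 of Neo. A probe counted as well above background on an array where at least 0.5 of its spots did. The Ppara probe was well above background on all 3 Neo arrays and on none of MR 4-25, so its signal there is only a bound. The bound is the lowest signal well above background on the array. On MR 4-25 1 and 2 it lay below all Neo values. On MR 4-25 3 it was -4.65, above all 3 Neo values, so a signal at the Neo level would not have counted there either. Lack of detection on MR 4-25 3 therefore cannot tell the lines apart. Averaged over all 3 arrays, MR 4-25 3 included, the bounds put Ppara at least 1.53-fold lower. The measured means were -4.90 in Neo and -6.60 in MR 4-25, and the fitted difference between them was -1.71 ± 0.18 log2 units (SE, n = 3 per line; limma adjusted p = 0.0246). That difference is set against background values and gives no fold. It was the only member detected in a single line, beside 0.337% of genes detected in Neo only and 0.075% in MR 4-25 only.

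The Ppara probe was printed in 10 spots on each array, which shows the difference spot by spot. Outside the region, the median spot intensity was 35.2, 29.1 and 31.5 in Neo 1, 2 and 3, and 13.1, 9.44 and 4.15 in MR 4-25 1, 2 and 3. Inside it, the medians were 29.8, 27.6 and 28.5 in Neo and 6.65, 6.85 and 4.15 in MR 4-25. Of the 7 spots outside the region on MR 4-25 1, 2 were well above background, and no other Ppara spot of MR 4-25 was. The value 4.15 recurs at other dim spots of MR 4-25 3, such as those of Rarb and Esr2, and stands for the bottom of that array's scale there. The lines differed in the same direction both inside and outside the region. From spots outside it, the difference was -1.63 ± 0.19 (SE), with a limma adjusted p of 0.0106.

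The call was not stable against the choice of fit. The difference was -1.6 within slide 1 and -1.93 within slide 2. With the slide as a block, where 1.58% of genes passed, the limma adjusted p was 0.0231, with the replicate number as a block it was 0.124, and with slide 1 alone 0.0626. It was 0.0746 with quantile normalization and 0.163 with an intensity trend and robust fit, both as limma adjusted p. With normexp background correction of the mean signal and an offset of 50, the difference was 0.54 with a limma adjusted p of 0.644. There the median of all genes also moved to 0.34. The offset was above the processed intensity of every Ppara spot kept, the highest being 45.9 in Neo 1. An offset of that size shrinks log2 differences of so dim a probe, so this setting cannot tell whether the Ppara difference holds. Leaving out 1 array in turn gave limma adjusted p-values of 0.0301 to 0.171, of which 1 of 6, the one without MR 4-25 3, was under the threshold. By Pearson correlation over the 6 arrays, the genes whose pattern was most like that of Ppara, among 12625 detected on all arrays, were Mcoln2, Rasal3 and Mphosph9 (r = 0.999 each), which is a description with no test.

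**Figure D3:**
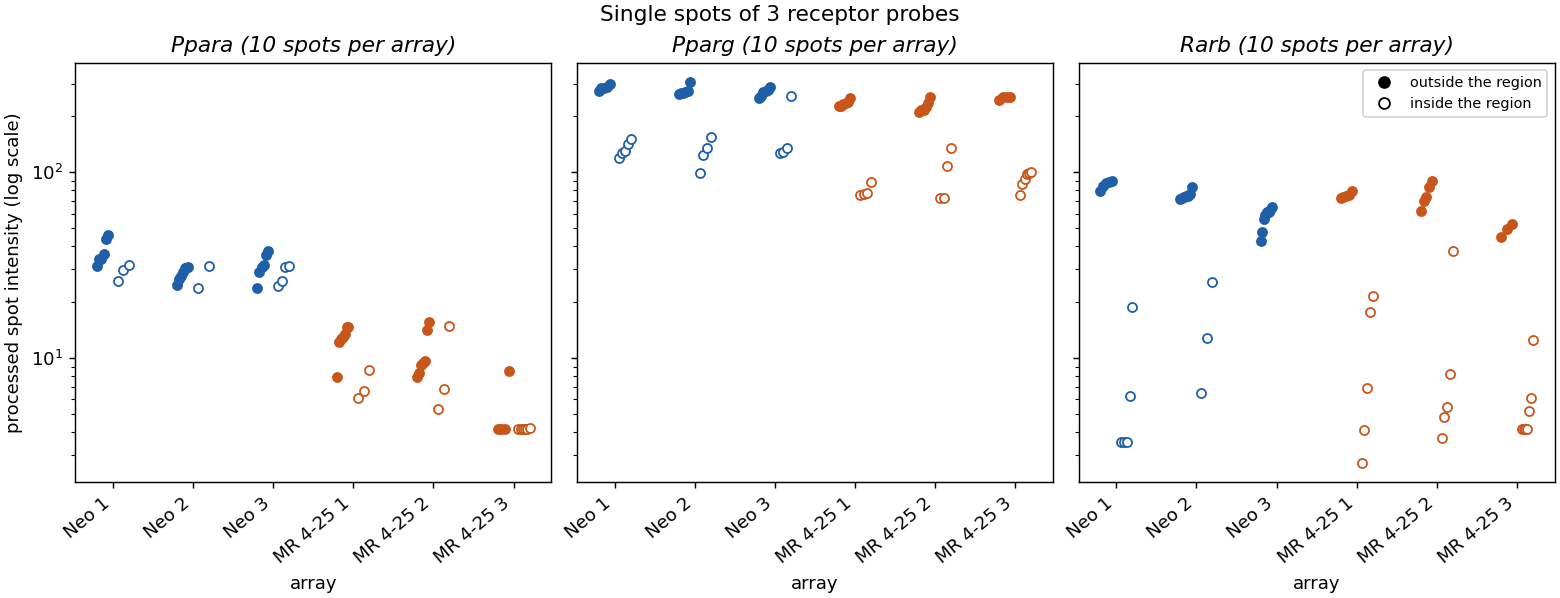
Processed intensity of each spot of the Ppara, Pparg and Rarb probes on the 6 arrays, on a log axis, with filled points outside and open points inside the low-signal region. Ppara spots are lower in MR 4-25 than in Neo on both sides of the boundary, whereas Pparg and Rarb spots are mostly lower inside than outside on each array that has both, except 1 Pparg spot of Neo 3 at 258.

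Pparg encodes the receptor best known for fat cell formation. Its signal was -2.34, -2.07 and -2.09 in Neo and -2.51, -2.52 and -1.92 in MR 4-25, and the lines overlapped. Its 10 spots differed by position on every array, and their medians were lower in MR 4-25 than in Neo on both sides of the boundary. Outside the region the spot medians were 283, 269 and 272 in Neo and 235, 222 and 254 in MR 4-25. Inside it they were 130, 130 and 131 in Neo and 76.8, 90.6 and 95 in MR 4-25. After scaling, the values outside the region were -1.86, -1.67 and -1.79 in Neo and -1.94, -1.96 and -1.24 in MR 4-25. There the lines overlapped, and MR 4-25 3 was the highest array. The difference between lines was -0.15 ± 0.23 (SE; limma adjusted p = 0.838) from all spots and 0.06 ± 0.21 from those outside.

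Ppard, the most widely expressed of the PPAR receptors, read -2.48, -2.31 and -2.81 in Neo and -2.33, -2.35 and -1.41 in MR 4-25, where the value -1.41 came from a spot inside the region. Its difference of 0.50 from all spots was 0.23 outside the region. Among the other receptors for lipids and foreign compounds, Nr1h4, the bile acid receptor, differed by 0.48 ± 0.26 (SE), and by 0.67 ± 0.19 outside the region (limma adjusted p = 0.169). The oxysterol receptor Nr1h3 read -3.77, -3.84 and -1.97 in Neo and -2.97, -3.70 and -1.06 in MR 4-25. Its 4 low values were the 4 arrays of slide 1, on which its spot lay inside the region. Nr1h2, the other oxysterol receptor, differed by -0.15, Nr1i2, the pregnane X receptor, by 0.16 and Nr1i3, the constitutive androstane receptor, by 0.33. Outside the region these differences were 0.01, -0.32 and 0.44.

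Of 23 measured genes on a list of PPAR targets, 1 was higher in MR 4-25, none was lower and 22 did not pass the test, with a median difference of -0.34. The gene that rose was Fabp4, a fatty acid carrier of fat cells and macrophages. Its signal was 5.67, 5.82 and 5.11 in Neo and 7.90, 7.98 and 7.57 in MR 4-25. The lines did not overlap, and the difference was 2.28 ± 0.25 log2 units (SE; limma adjusted p = 0.0272, and 0.105 with the replicate number as a block). Outside the region, 2 of 15 passed as higher and 1 as lower, beside 2.91% of 15417 genes in either direction. Fabp4 was among the higher ones, at 2.45 (limma adjusted p = 0.00953), and the other higher gene is not named here. The lower one was Cpt1a, which moves fatty acids into mitochondria, at -0.85 (limma adjusted p = 0.0203). Cpt1a was named after its values were seen, and the 2 higher genes went the other way. None of 15 measured LXR targets passed. The largest difference there was that of Abcg1, a cholesterol exporter, at -1.93 ± 0.53 (SE; limma adjusted p = 0.212), with values of -4.58, -4.62 and -5.57 in Neo and -5.95, -7.65 and -6.97 in MR 4-25. The values of MR 4-25 2 and 3 lay under the lowest signal well above background on those arrays, -5.89 and -4.65. The Abcg1 difference is thus partly set against background values and gives no fold.

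The retinoid receptors comprise the RAR proteins, which bind retinoic acid, and their RXR partners. None of the 6 passed the test. Rarb read -5.50, -4.25 and -4.03 in Neo and -5.17, -5.23 and -5.65 in MR 4-25. Its spots differed by position. Outside the region their median intensity before scaling was 87.3, 74.2 and 59.7 in Neo and 74.2, 73.9 and 49.7 in MR 4-25. Inside it the medians were 3.52 and 12.8 in Neo 1 and 2 and 6.91, 5.47 and 4.15 in MR 4-25. The difference of -0.75 ± 0.44 (SE) from all spots was 0.14 ± 0.15 from those outside. A second Rarb probe, outside the region on all 6 arrays, went the other way from the all-spot difference. It gave 0.60 (limma adjusted p = 0.573 among every probe), and the lines overlapped.

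Rarg was measured by 2 probes. The brightest read -4.26, -1.61 and -1.74 in Neo and -3.28, -3.44 and -0.52 in MR 4-25, and its low values were the 3 arrays on which its spot lay inside the region. The second probe lay outside the region on all 6 arrays and read -4.30, -4.25 and -4.46 in Neo and -3.43, -3.79 and -3.07 in MR 4-25. There the lines did not overlap. Tested among every probe, its difference was 0.91 (limma adjusted p = 0.174), and 0.88 in the fit restricted to spots outside the region (limma adjusted p = 0.0327). This probe was singled out after its values were seen.

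Rxra read -1.71, -1.60 and -1.52 in Neo and -1.0, -1.31 and -1.42 in MR 4-25, without overlap. Its difference was 0.37 ± 0.18 (SE; limma adjusted p = 0.473), and 0.55 ± 0.15 outside the region (limma adjusted p = 0.161). Its second probe gave 0.39. Rxrb read 2.02, 2.05 and 1.95 in Neo and 1.79, 2.07 and 2.09 in MR 4-25. Rara differed by -0.26, and Rxrg by 0.54 with its 4 lowest values on slide 1 inside the region. None of 15 measured genes of retinoid metabolism and RAR targets passed. The largest difference there was that of Rbp4, the retinol carrier of plasma, at -1.06 ± 0.61 (SE; limma adjusted p = 0.563).

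**Figure D4:**
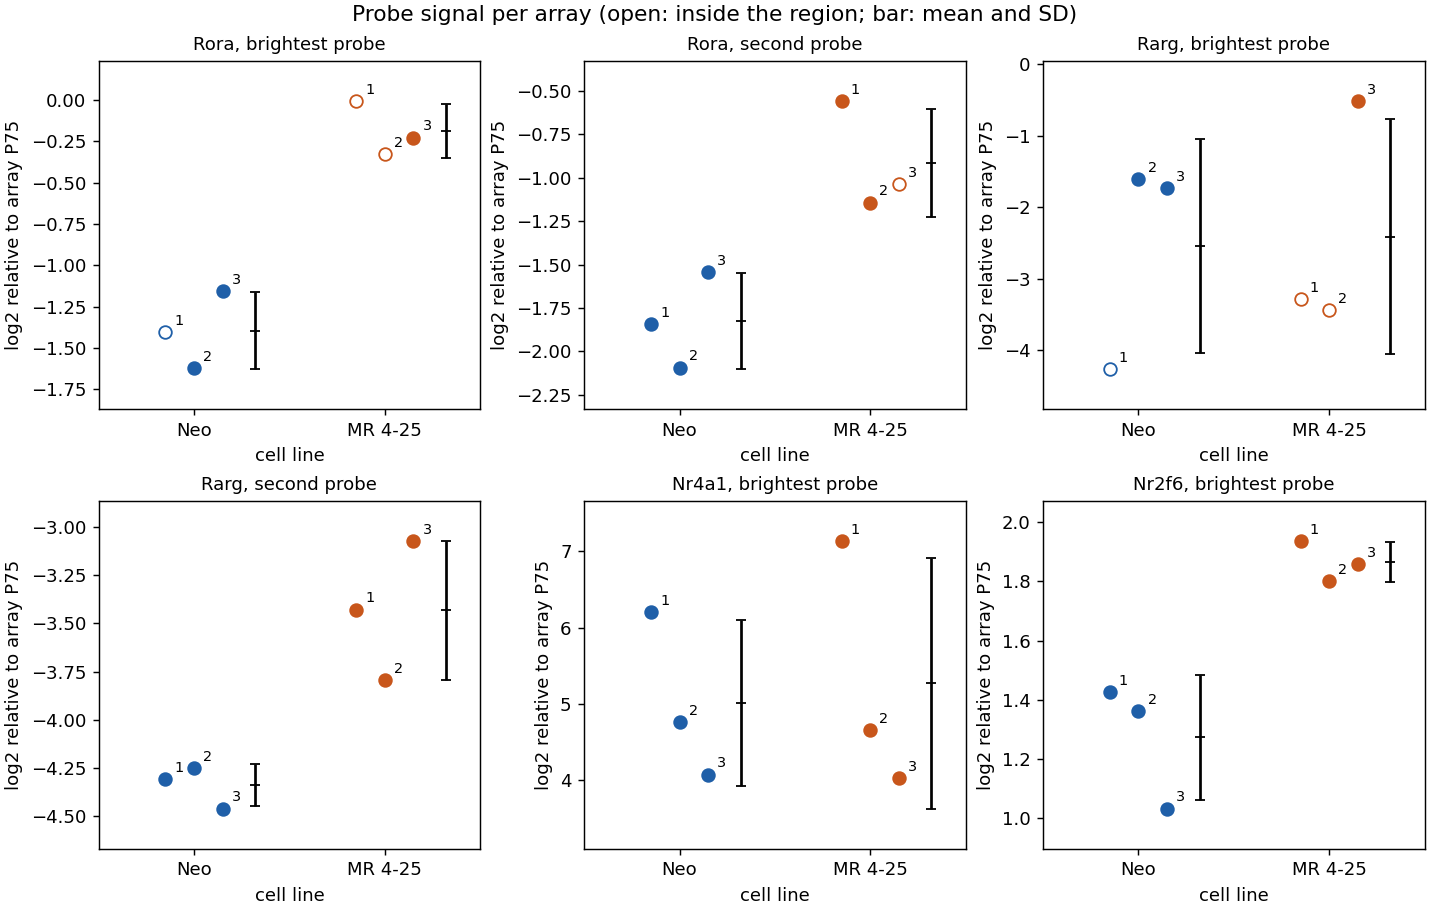
Signal of single probes in each array of Neo and MR 4-25, on the log2 scale relative to the array's 75th percentile (P75), with replicate numbers beside the points, open points inside the low-signal region, and bars for mean and SD of 3 arrays. The 2 brighter of 3 Rora probes are higher in all MR 4-25 arrays, and the 2 Rarg probes differ in pattern. Nr2f6 does not overlap between lines, and Nr4a1 is highest in replicate 1 of both lines.

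Rora binds DNA as an activator at sites that Nr1d1 and Nr1d2 repress, and together they form a loop of the circadian clock. Rora read -1.40, -1.62 and -1.16 in Neo and -0.01, -0.33 and -0.23 in MR 4-25. All values of MR 4-25 were above those of Neo. The difference was 1.21 ± 0.19 log2 units (SE, n = 3 per line), a 2.31-fold higher signal, and missed the threshold with a limma adjusted p of 0.0691. The spot lay inside the region on Neo 1, MR 4-25 1 and MR 4-25 2, so no value outside it could be fitted. The second Rora probe, which lay outside the region on all arrays but MR 4-25 3, read -1.84, -2.09 and -1.54 in Neo and -0.56, -1.14 and -1.04 in MR 4-25. It gave 0.91 from all spots and 1.02 outside the region, with limma adjusted p-values of 0.192 and 0.0931. The dimmest of the 3 Rora probes was well above background on MR 4-25 1 alone and did not pass the filter. It read -7.29, -7.08 and -6.80 in Neo and -5.72, -7.35 and -6.97 in MR 4-25, and the lines overlapped. Rora passed under 3 of the alternative settings: the filter on all 6 arrays (0.0281), the intensity trend with robust fit (0.0313) and array quality weights (0.0093, as limma adjusted p).

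Nr1d1 read -2.50, -2.84 and -0.64 in Neo and -2.07, -2.37 and 0.55 in MR 4-25, with the high value of each line on slide 2 outside the region. Its difference was 0.70, while its other probes gave -0.68, without overlap, and 0.71. The spot of the one at -0.68 lay inside the region on Neo 1, MR 4-25 1 and MR 4-25 2. Nr1d2 differed by -0.13 and Rorb by 0.25, and outside the region by 0.03 and -0.14. None of 18 measured clock genes passed. The largest difference was that of Per3, a clock repressor, at -2.29 ± 0.71 (SE; limma adjusted p = 0.256). It read -4.49, -2.19 and -2.26 in Neo and -5.24, -4.81 and -5.77 in MR 4-25, and the spots of its 4 low arrays lay inside the region.

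Among the thyroid hormone receptors, Thra read 2.14, 2.14 and 2.04 in Neo and 1.83, 1.90 and 1.46 in MR 4-25, without overlap. The difference was -0.37 ± 0.18 (SE; limma adjusted p = 0.471), and -0.22 outside the region. Thrb read -1.68, -1.58 and -5.43 in Neo and -1.67, -1.41 and -4.96 in MR 4-25. Both low values were replicate 3 inside the region, and outside it the lines differed by 0.14 ± 0.18 (SE). Vdr, the vitamin D receptor, did not pass the filter. None of 11 measured targets of these receptors passed. The largest difference was that of Spp1, the secreted phosphoprotein osteopontin, at 2.60 ± 0.39 (SE; limma adjusted p = 0.0600). It read -1.80, -2.14 and -1.55 in Neo and 1.23, 0.00 and 1.09 in MR 4-25, and outside the region gave 2.56 with a limma adjusted p of 0.0199.

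None of the oestrogen, oestrogen-related and mineralocorticoid receptors passed. Esrra, a regulator of mitochondrial genes, read 1.92, 2.34 and 1.85 in Neo and 1.30, 1.66 and 1.60 in MR 4-25. The lines did not overlap, and the difference was -0.51 ± 0.21 (SE; limma adjusted p = 0.388). Its second probe gave -1.17, in the same direction (limma adjusted p = 0.230). The mineralocorticoid receptor Nr3c2 had the largest difference of this group, -0.83 ± 1.70 (SE), from values of -4.44, -0.72 and -0.88 in Neo and -4.57, -4.18 and 0.21 in MR 4-25. Its spot was near the boundary of the region on 3 of the arrays. The second Nr3c2 probe differed by 0.51, and by 0.80 outside the region (limma adjusted p = 0.0560). Esrrg differed by 0.73, Esr1 by 0.76, Esrrb by 0.19 and Esr2 by 0.13, and the low values of Esr1 and Esr2 came from spots mostly inside the region. Of 4 measured receptors outside the naming pattern, none passed. None of 12 measured receptor chaperones passed. The largest there was Ahsa1, an activator of Hsp90, at -0.48 ± 0.20 (SE; limma adjusted p = 0.390).

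Nr2f6, an orphan receptor known to restrain cytokine genes in T cells, was measured by 1 probe outside the region on all 6 arrays. It read 1.43, 1.36 and 1.03 in Neo and 1.94, 1.80 and 1.86 in MR 4-25. The lines did not overlap. The difference was 0.59 ± 0.17 (SE; limma adjusted p = 0.233), a 1.51-fold higher signal, and 0.57 ± 0.13 outside the region (limma adjusted p = 0.0806). Nr2f2, a regulator of vessel and organ development, read -2.66, -2.75 and -2.61 in Neo and -2.81, -3.02 and -4.99 in MR 4-25, where the value of MR 4-25 3 came from a spot inside the region. Its difference of -0.94 ± 0.62 (SE) was -0.20 ± 0.12 outside the region. Nr2c1 differed by -0.36, Nr2c2 by -0.27 and Nr2e3 by -0.33.

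The 3 NR4A receptors are made quickly after stimulation and act without a known bound ligand. Nr4a1 read 6.20, 4.76 and 4.07 in Neo and 7.14, 4.66 and 4.02 in MR 4-25, with its spot outside the region on every array. Replicate 1 was the highest array of both lines, and the lines overlapped. The difference was 0.26 ± 0.99 (SE; limma adjusted p = 0.939), while the SD among the 3 arrays was 1.09 in Neo and 1.65 in MR 4-25. Nr4a2 read -1.31, -1.44 and -1.38 in Neo and -1.50, -1.69 and -2.92 in MR 4-25, and its difference of -0.66 ± 0.41 (SE) was -0.16 ± 0.13 outside the region. Nr4a3 read -5.55, -5.46 and -5.62 in Neo and -5.44, -5.76 and -6.97 in MR 4-25, and its difference of -0.52 was -0.02 outside it. For both genes the low value of MR 4-25 3 came from a spot inside the region. The Nr4a3 probe was well above background on 3 arrays of Neo and 1 of MR 4-25. On MR 4-25 3 the lowest signal well above background was -4.65, above all Neo values of Nr4a3, so a signal at the Neo level would not have counted there.

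Among the receptors of subfamilies 5, 6 and 0, Nr6a1, a repressor of pluripotency genes in the embryo, had the largest difference. It read -1.25, -1.30 and -2.66 in Neo and -1.11, -1.10 and -1.44 in MR 4-25, a difference of 0.52 ± 0.43 (SE) that was 0.22 ± 0.13 outside the region. Nr5a1, a regulator of steroid-producing cells, read -5.05, -2.03 and -2.83 in Neo and -4.37, -4.89 and -1.04 in MR 4-25. Its low values were the 3 arrays with the spot inside the region. Nr5a2 differed by 0.41 and Nr0b2 by 0.09.

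None of the 7 coactivators passed. Ncoa1, a histone acetyltransferase partner of many receptors, read 0.75, 0.64 and 0.51 in Neo and 1.35, 0.97 and 1.34 in MR 4-25. The lines did not overlap. The difference was 0.59 ± 0.18 (SE; limma adjusted p = 0.254), and 0.52 ± 0.16 outside the region (limma adjusted p = 0.196). Ncoa4, which is also the cargo receptor for ferritin, read 2.02, 2.02 and 1.80 in Neo and 2.17, 2.08 and 2.60 in MR 4-25, a difference of 0.33 that was 0.22 outside the region. Its other 2 probes gave 0.48 and 0.24. Ncoa3, another acetyltransferase partner, read 2.85, 2.72 and 2.85 in Neo and 2.60, 2.64 and 2.48 in MR 4-25, a difference of -0.23 ± 0.14 (SE) without overlap. Its spot lay inside the region on Neo 1 and on all 3 arrays of MR 4-25, so no value outside it could be fitted. The other Ncoa3 probes gave 0.22 and -0.09, and on both the lines overlapped. Ncoa6 read 4.68, 4.59 and 4.70 in Neo and 4.57, 4.49 and 4.47 in MR 4-25, without overlap. It differed by -0.15 ± 0.14 (SE), and by -0.05 outside the region. Ncoa7 read 3.75, 3.84 and 3.34 in Neo and 3.83, 3.80 and 3.24 in MR 4-25, a difference of -0.02. Ncoa2 differed by -0.31, and by -0.10 outside the region, and Ncoa5 by -0.32.

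Ncor1 brings histone deacetylases to receptors without ligand, and Nrip1 binds receptors that hold ligand and represses their targets. Ncor1 read 3.73, 3.16 and 3.52 in Neo and 3.43, 3.09 and 2.91 in MR 4-25, a difference of -0.32 ± 0.23 (SE; limma adjusted p = 0.655). Of its 7 probes, the 3 tested ones with differences beyond 0.5 in size went both ways. Those at -1.28 and -1.30 lay inside the region on Neo 1, MR 4-25 1 and MR 4-25 2, and the one at 0.58 (limma adjusted p = 0.161 among every probe) lay inside it on all 4 arrays of slide 1. Nrip1 read 1.70, 1.61 and 1.84 in Neo and 1.73, 1.54 and 2.18 in MR 4-25, a difference of 0.10, while another of its probes gave -0.99 (limma adjusted p = 0.237, and 0.139 outside the region).

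Of 25 measured genes of other coactivator complexes, 1 was higher and 24 did not pass, with a median difference of -0.05. The gene that rose was Cited2, a partner of the acetyltransferases CBP and p300 and a coactivator of Ppara and Pparg. Its signal was 0.91, 1.11 and 0.74 in Neo and 2.30, 2.36 and 2.19 in MR 4-25. The difference was 1.36 ± 0.16 log2 units (SE; limma adjusted p = 0.0337, and 0.140 with the replicate number as a block). Outside the region, Smarca2, an ATPase of the SWI/SNF remodelling complex, passed as well, at 2.76 (limma adjusted p = 0.0238). None of 22 measured corepressor complex genes passed from all spots. The largest difference was that of Hdac7, a deacetylase of thymocytes, at -1.41 ± 0.27 (SE; limma adjusted p = 0.108). Outside the region, Hdac7 (-1.14, limma adjusted p = 0.0404) and the zinc finger repressor Zbtb20 (1.17, 0.0106) passed. Smarca2 and Zbtb20 were named after their values were seen.

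The spread between arrays of a line was smaller from spots outside the region, but the 2 readings do not cover the same arrays. For members such as Thra, Rxra and Ncoa1 the outside values came from slide 1 alone, with 2 arrays per line. The part that the missing arrays had in the smaller spread was not tested. The median SD within a line was 0.31 for members from all spots and 0.20 from spots outside. Over all genes it was 0.39 and 0.17. Over the 38 members measured both ways, the median size of the difference was 0.33 from all spots and 0.21 outside. The line-by-slide interaction, which asks whether the 2 slides gave different line differences, was past the threshold for 1 of 49 members, Nr2f2 (limma adjusted p = 0.0339), beside 10.4% of genes. At an unadjusted p under 0.05 it was past for 11 members, beside 28.5% of genes.

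**Figure D5:**
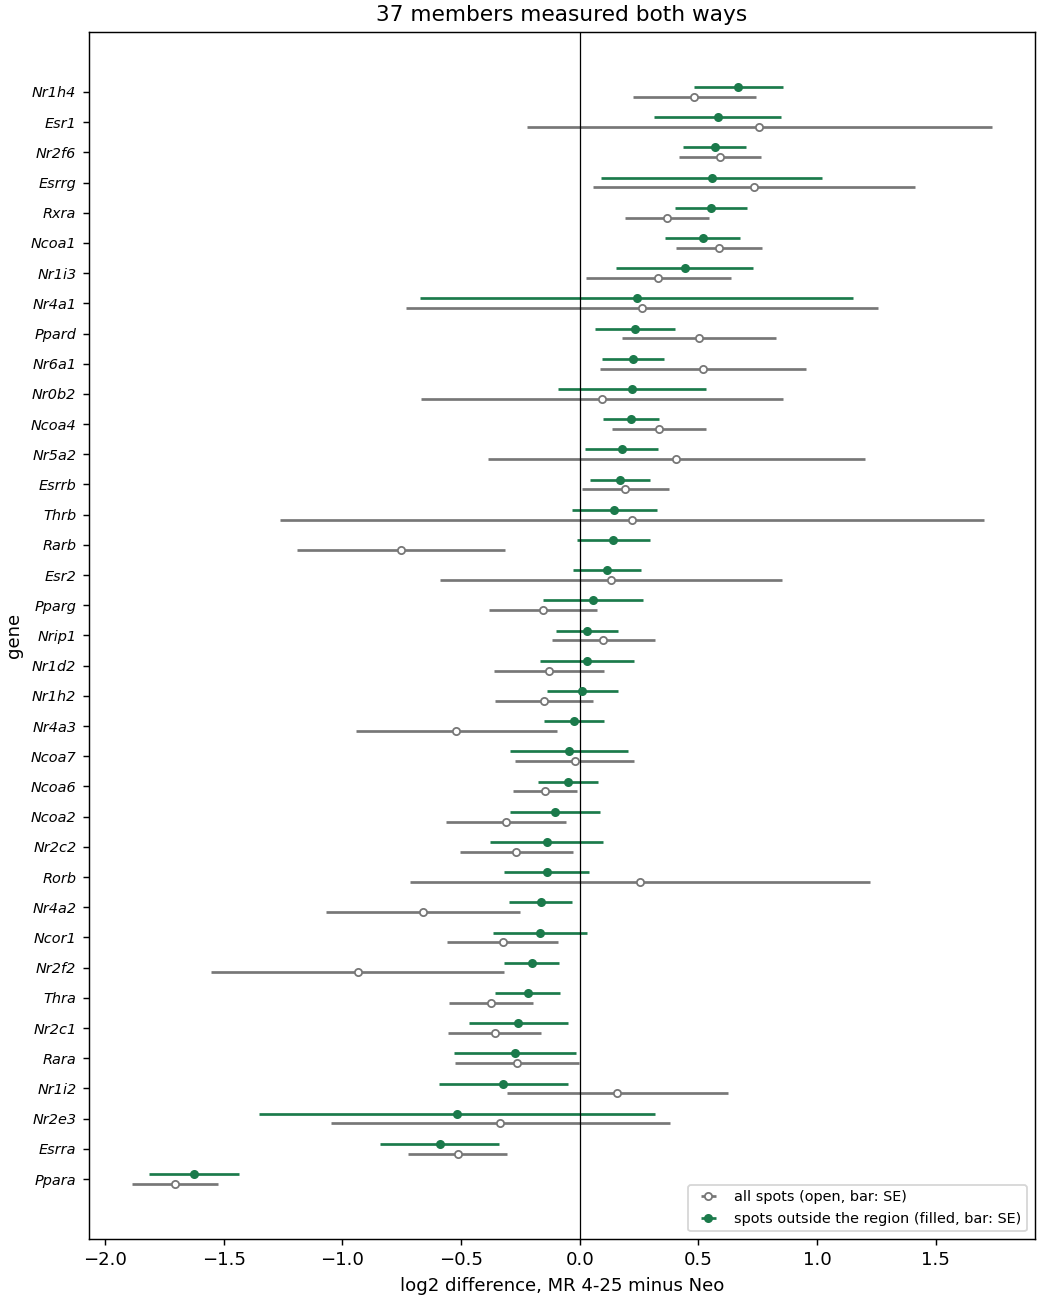
Log2 difference, MR 4-25 minus Neo, of 37 of the 38 members measured both ways, from all spots (open grey points) and from spots outside the low-signal region (filled green points), with bars for SE. Ppara lies at -1.71 and -1.63, while Rarb, Nr2f2, Nr4a2 and Nr4a3 lie near 0 only in the second reading.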

How the data were processed

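The values are Cy3 intensity values from 6 Agilent 1-colour arrays which the authors deposited as scanner files from Feature Extraction 9.5 per the labels and 9.5.3.1 per the file headers. A deposited value table held the same numbers. Control spots and spots marked as outliers were left out, and log2 signals of a probe's spots were averaged and scaled by subtracting log2 of the 75th percentile. Probes well above background, by at least 0.5 of their spots, on 3 or more arrays were kept. The brightest probe by mean stood for a gene. Symbols came from the RefSeq table (GRCm38.p6) by accession for 22951 probes and by synonym for 3109. Lines were compared with limma 3.58.1 in R 4.3.3 (lmFit and eBayes, Benjamini-Hochberg over 21341 genes, threshold 0.05), tested on simulated data. The number of arrays limits the precision.

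The low-signal region was drawn from those of 240 probes with 10 spots whose spots had an SD over 0.5 log2 units, 102 to 124 per array. A spot counted as low at more than 0.5 log2 units under the probe's spot ranked 3 from the top, and each gene spot took the majority of its 9 nearest such spots. This was added after seeing the data.

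Same-numbered replicates deviated together (correlations 0.291, 0.214 and 0.557). They also shared a slide, so the correlations cannot tell a pairing of samples from an effect of the slide. The main fit used no pairing, and a fit with the replicate number as a block is given as an alternative. The members and lists were chosen with earlier results of these data known. Named were members past the test, without overlap and at least 1 apart, or detected in 1 line, the 10 of highest signal, the NR4A genes, the largest difference of each subfamily and, per list, genes past the test or else the largest. Some genes of the naming rule are not reported here. Protein motifs planned for the members were not analysed here. Figures were drawn with Python 3.11.15 and matplotlib 3.10.9.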

Additional observations from a re-analysis of the deposited data

How the results depend on the processing

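The number of members past the test was 1 as reported. It was 0 with normexp background correction, quantile normalization, slide 1 alone or the replicate block, and 4 with array quality weights (Ppara, Rora and Nr1h4 among them). It was 1 under the other planned settings, although that 1 was Rora with the filter on all 6 arrays, where Ppara had no value, and with the intensity trend and robust fit, where the limma adjusted p of Ppara was 0.163. Leaving out 1 array gave 0 to 1. Ppara ran from -1.89 to -1.60 under 12 of 13 settings that kept all arrays or a slide, with 8 of 13 past the threshold. Among the 8 were the deposited value table, no filter, the mean over probes and every probe on its own. Those reuse the same values of the 1 Ppara probe, so they add no separate support. Ppara was 0.54 with normexp and its offset of 50, where the median of all genes moved to 0.34 and 13 of 49 members changed sign. It was -1.82 to -1.58 with 1 array left out. For pathway lists, 2 genes passed as reported. None (0) passed with normexp, the replicate block or any 1 array left out, 1 with no filter or slide 1 alone, 9 with the filter on all 6 arrays or the intensity trend, 22 with array quality weights and 8 outside the low-signal region. Over all genes 263 passed, against 77 with normexp (68.8% of them higher, 54.8% as reported), 524 with the filter on all arrays, 718 with the trend, 2018 with weights, 124 on slide 1, 1 with the replicate block, 449 outside the region and 0 to 223 with 1 array left out. The cause was not tested. A group with 1 array left out has 2 arrays.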
